A study of Homo sapiens with 57 samples.

Results

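The 11 transcripts described here belong to 10 genes of the heat shock and chaperone families, and were followed across messenger RNA libraries of HCT116 cells, a human colorectal carcinoma line. They were chosen by transcript identifier from 228715 transcripts listed in each table, by a rule that did not use their values. Earlier results of these data were known when the transcripts were chosen. They are HSPA1A (ENST00000375651), HSPA1B (ENST00000375650), HSPA8 (ENST00000227378 and ENST00000534624), HSP90AA1 (ENST00000216281), HSP90AB1 (ENST00000371646), DNAJB1 (ENST00000254322), HSPB1 (ENST00000248553), HSPD1 (ENST00000388968), HSPE1 (ENST00000233893) and HSPH1 (ENST00000320027). The tables carry identifiers without gene names, so the names rest on the list by which the transcripts were chosen. HSPA1A and HSPA1B are nearly identical in sequence, so their reads were summed and tested as 1 row. This left 10 rows, of which 9 had enough reads to be tested.

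Of the 57 samples of the series, 9 are messenger RNA libraries, in 3 groups of 3. All came from HCT116 cells whose Spt5 is labelled as an Spt5-HA-dhfr fusion and which carried pCW57 with Avi-tagged Spt5 residues 1 to 820. The groups differ in the CTR1 part of that fragment, which the labels name WT, TA7 or TE7 without spelling out the changes. Every group had doxycycline at 2 ug/ml for 24 hours to induce the fragment, no trimethoprim, and a medium of McCoy's with serum, hygromycin (200 ug/ml), G418 (1 mg/ml) and blasticidin (15 ug/ml). Spt5 stays with RNA polymerase II during elongation, CTR1 is a repeat region near its C-terminal end, and a dhfr degron leads to loss of the protein fused to it when trimethoprim is absent. The WT group is therefore not an unmodified cell: it shares the fusion, the missing trimethoprim and the doxycycline with the other groups. Neither the number of clones behind each line nor separate cultures behind the replicates is stated, so p-values measure the spread between these libraries, which may be technical. A line effect and an effect of the CTR1 form cannot be told apart.

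Chaperones bind unfolded or partly folded proteins and help them reach or keep their shape. HSP70 proteins do this in cycles of ATP use that J-domain proteins start and nucleotide exchange factors end, HSP90 proteins act late on clients such as kinases and receptors, small heat shock proteins hold unfolded clients without ATP, and the HSP60 and HSP10 proteins form a folding chamber in mitochondria. Part of these genes are made at all times, and others rise sharply when the factor HSF1 binds heat shock elements, which are repeats of short inverted units in their promoters. The inducible HSP70 genes are textbook cases of RNA polymerase II pausing just past the start site, a step in which Spt5 takes part.

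Libraries held 64364751 to 90805283 estimated reads, and the scaling factors (TMM, which align the bulk of transcripts between libraries) ran from 0.920 to 1.04. The lowest factor was that of WT replicate 1, which also had the fewest transcripts with reads, 87229 against 95401 to 99993 in the others. In scaled counts (CPM, relative to library size) it was the highest WT library in 9 of 9 tested rows. How often this library was the highest over all transcripts was not computed. In TPM, which is also per transcript length, it was the highest in 7 of 9, and WT replicate 2 was the lowest in 9 of 9. Differences of TE7 from WT are therefore also given without WT replicate 1. Leaving it out lowers the WT mean in CPM of every tested row, so a row that passes without it gains no support from that fit.

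The upstream sequences of 5 genes are shown first, because they set the near-identical HSP70 pair and the rows that rose with TE7 beside HSPA8, which is made at all times. Each is the 250 bases before a RefSeq start on GRCh38.p14, read 5′ to 3′ on the strand of the gene. Capitals mark the inverted heat shock units GAANNTTC and TTCNNGAA, and TATAAA. The windows lie at chr6:31815293-31815542 (plus strand) for HSPA1A, chr6:31827488-31827737 (plus) for HSPA1B, chr19:14518398-14518647 (minus) for DNAJB1, chr7:76302423-76302672 (plus) for HSPB1 and chr11:123062137-123062386 (minus) for HSPA8.
HSPA1A: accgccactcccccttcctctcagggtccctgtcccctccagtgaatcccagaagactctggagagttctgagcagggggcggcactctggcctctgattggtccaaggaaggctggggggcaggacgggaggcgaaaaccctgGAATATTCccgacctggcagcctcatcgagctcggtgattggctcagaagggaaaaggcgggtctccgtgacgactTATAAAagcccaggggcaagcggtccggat
HSPA1B: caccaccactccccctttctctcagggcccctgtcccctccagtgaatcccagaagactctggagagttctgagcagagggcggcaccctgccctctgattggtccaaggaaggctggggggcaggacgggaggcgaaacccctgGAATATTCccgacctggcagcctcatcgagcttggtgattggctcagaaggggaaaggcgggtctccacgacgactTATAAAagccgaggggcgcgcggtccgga
DNAJB1: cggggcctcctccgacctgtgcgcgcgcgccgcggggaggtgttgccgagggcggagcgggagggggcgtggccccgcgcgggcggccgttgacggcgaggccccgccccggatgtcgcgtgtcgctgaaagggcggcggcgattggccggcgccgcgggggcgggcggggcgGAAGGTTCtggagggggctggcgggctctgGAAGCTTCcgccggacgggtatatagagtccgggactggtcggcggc
HSPB1: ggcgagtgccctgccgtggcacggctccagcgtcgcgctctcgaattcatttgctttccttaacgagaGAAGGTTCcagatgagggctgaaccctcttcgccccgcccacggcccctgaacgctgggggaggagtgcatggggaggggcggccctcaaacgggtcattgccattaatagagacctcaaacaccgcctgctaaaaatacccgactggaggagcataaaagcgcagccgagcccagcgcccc
HSPA8: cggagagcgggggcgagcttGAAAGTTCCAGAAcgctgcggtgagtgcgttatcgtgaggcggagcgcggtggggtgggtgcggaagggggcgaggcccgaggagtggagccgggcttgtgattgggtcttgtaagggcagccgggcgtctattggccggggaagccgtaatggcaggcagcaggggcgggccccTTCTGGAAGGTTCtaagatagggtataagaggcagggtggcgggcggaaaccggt

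The HSPA1A and HSPA1B windows had the same letter in 235 of 251 aligned columns (93.6%), which shows how alike the pair is even outside the transcript. Each held 1 unit of GAANNTTC at 106 bases before the start in HSPA1A and at 105 in HSPA1B, and TATAAA at 30 and 29 bases before it. The DNAJB1 window shown, 1 of 3 of that gene, held 2 units of GAANNTTC, 47 and 77 bases before the start. The other DNAJB1 windows held no unit of either kind. HSPB1 held 1 unit of GAANNTTC, 182 bases before the start. HSPA8 held units of both kinds that joined into the longer element of 3 alternating units.

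Over all 10 genes, RefSeq gave 16 such windows, since some genes have several starts, and it was not determined which start gives the listed transcript. Both strands were searched, and the motifs can overlap. GAANNTTC was in 8 of 16 windows, 1 window of each gene but HSPE1 and HSPH1, and in 5.78% of all 35116 windows of the table. TTCNNGAA was in 4 of 16 (HSPA8, HSP90AA1, HSP90AB1 and HSPD1) and in 6.62% of all. The longer element of 3 alternating units was in the same 4 genes and in 0.441% of all. TATAAA was in 2 of 16 against 10.7% of all, and CCAAT, another common promoter box, in 7 of 16 against 32.0%. Of the 2 HSPD1 windows, the one without a unit shared 104 bases with the HSPE1 window. These windows are read in opposite directions from starts 105 bases apart. The HSPD1 window that held the units did not overlap the HSPE1 window, and bases farther than 250 from a start were not searched. A match describes letters, and no binding was measured here. The windows printed above were chosen partly by the TE7 results, and those of HSP90AA1, HSP90AB1 and HSPD1 are not printed. Whether these motifs go with the TE7 differences was not tested.

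The first comparison asks how chaperone mRNA in cells with the TE7 form differs from cells with the WT form. DNAJB1, the J-domain partner of HSP70, rose 1.84-fold, and HSPB1, a small heat shock protein also called HSP27, rose 1.62-fold. No chaperone row was called lower, and HSPH1, at 0.71-fold the only row with a fold below 1, did not pass. The inducible HSP70 pair HSPA1A and HSPA1B (0.38 in log2) and mitochondrial HSPD1 (0.28) did not pass the test, although their TE7 libraries lay above the WT libraries. The transcripts of HSPA8, HSP90AA1, HSP90AB1 and HSPE1 had fitted folds between 1.06 and 1.12 and did not pass.

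Among the 9 tested rows, 2 were called higher and 0 lower in TE7 than in WT (quasi-likelihood test of edgeR, p adjusted by Benjamini-Hochberg over all transcripts and under 0.05). Of all 78477 tested transcripts 9.4% were called, and 4.59% were called higher. Chaperone transcripts are abundant, and abundant transcripts were called more often, with 31.1% of the 1587 at 100 CPM or more, and 16.1% of them called higher. With 9 rows, a count of 2 is near these shares. The 3 TE7 libraries lay above the 3 WT libraries in 5 of 9 rows (DNAJB1, HSPB1, the HSPA1A and HSPA1B sum, HSPD1 and HSP90AB1), and the groups overlapped in the other 4. Over all transcripts 32.9% did not overlap, in either direction. The median log2 fold change was 0.16 over the 9 rows, -0.02 over all transcripts and 0.08 over those at 100 CPM or more. In RNA from whole cultures, fewer cells with a transcript and less RNA of it per cell cannot be told apart.

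**Figure D1:**
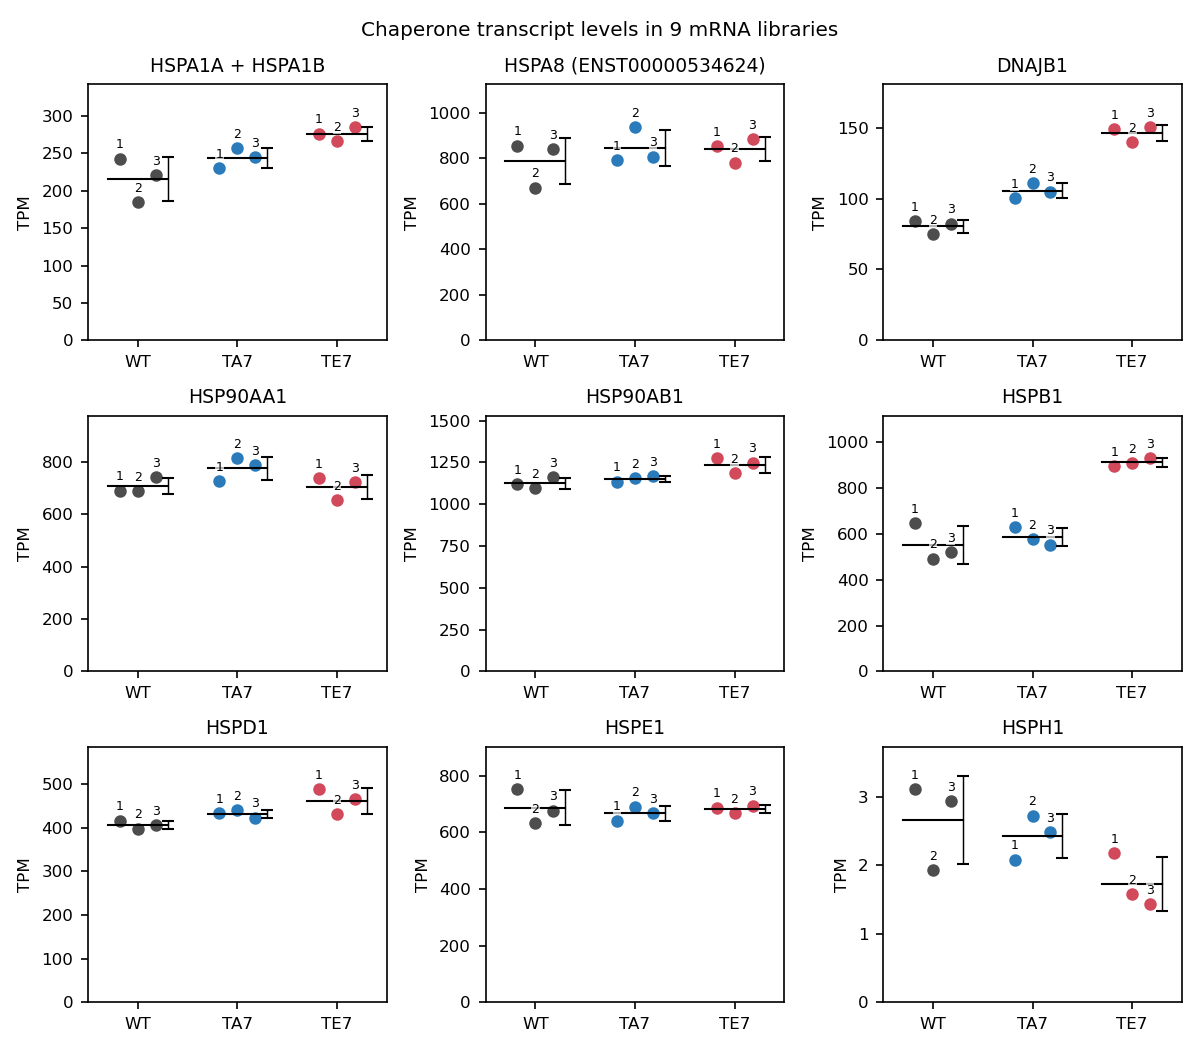
Level of each chaperone row in TPM (y axes start at 0) in the WT, TA7 and TE7 groups. Points are libraries with their replicate number, the horizontal line is the mean and the bar at its right end is the SD (n = 3). DNAJB1 and HSPB1 show all TE7 libraries above all others, at 139.6 to 150.3 TPM and 896 to 931 TPM.

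DNAJB1 delivers unfolded clients to HSP70 and starts its ATP cycle. Its level was 83.9, 74.7 and 82.3 TPM in WT replicates 1 to 3, 100.3, 111 and 105 TPM in TA7, and 149, 139.6 and 150.3 TPM in TE7. The groups formed 3 separate steps, with every TA7 library above every WT library and every TE7 library above every TA7 library. In CPM the order was the same, but WT replicate 1 (173 CPM) lay close to TA7 replicate 1 (178 CPM). Over all transcripts, TA7 and WT did not overlap in CPM in 14.1%. TE7 exceeded WT by 0.88 in log2 (SE 0.0881, 95% interval 0.68 to 1.09, edgeR adjusted p = 0.00170). It exceeded TA7 by 0.60 (SE 0.0877, interval 0.40 to 0.80, edgeR adjusted p = 0.0181). TA7 exceeded WT by 0.28 (SE 0.0875, interval 0.08 to 0.49), which did not pass after adjustment over all transcripts (edgeR adjusted p = 0.457). Without WT replicate 1 the TA7 difference was 0.41 and passed (edgeR adjusted p = 0.0276). The TE7 difference from WT was then 1.00 (edgeR adjusted p = 0.000268). Without WT replicate 2 the TA7 difference was 0.22 and did not pass (edgeR adjusted p = 0.697). The TE7 difference from WT was then 0.82 and passed (edgeR adjusted p = 0.00761). Leaving out any 1 TA7 or TE7 library ended the call between TE7 and TA7, with edgeR adjusted p between 0.0584 and 0.0911, while the log2 difference stayed between 0.58 and 0.63.

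HSPA1A and HSPA1B are the classic stress-inducible HSP70 genes, which lie side by side on chromosome 6. Their summed level was 243, 184 and 221 TPM in WT, 230.1, 257 and 244 TPM in TA7, and 276, 266 and 285 TPM in TE7. All TE7 libraries were highest, with TA7 replicate 2 closest to them. The log2 difference of TE7 from WT was 0.38 (SE 0.127, interval 0.09 to 0.68, edgeR adjusted p = 0.107), and from TA7 it was 0.31 (interval 0.02 to 0.60, edgeR adjusted p = 0.238). TA7 and WT overlapped, with a log2 difference of 0.07 (interval -0.22 to 0.37). Without WT replicate 1 the difference of TE7 from WT was 0.56 and passed (edgeR adjusted p = 0.00320). Without WT replicate 2 it was 0.26 and did not pass (edgeR adjusted p = 0.222). Of 9 fits with 1 library left out, 1 passed.

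Nearly all reads of the pair were given to HSPA1B. HSPA1A had 1.79% to 2.54% of them over the 9 libraries, or 4.12 to 6.69 TPM against 180.1 to 278 TPM for HSPA1B. How the authors' quantification divided reads between such similar transcripts was not tested, so the sum is the safer value. Taken singly, the log2 difference of TE7 from WT was 0.37 for HSPA1A and 0.38 for HSPA1B (edgeR adjusted p = 0.357 and 0.104).

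HSPA8 encodes HSC70, the HSP70 that cells make without stress. Its transcript ENST00000534624 was at 855, 672 and 841 TPM in WT, 793, 937 and 808 TPM in TA7, and 855, 781 and 885 TPM in TE7. The groups overlapped, and the spread within WT exceeded the difference between group means. The log2 difference of TE7 from WT was 0.12 (interval -0.17 to 0.42, edgeR adjusted p = 0.618). It was 0.27 without WT replicate 1 (edgeR adjusted p = 0.111) and 0.0085 without WT replicate 2 (edgeR adjusted p = 0.983). The other HSPA8 transcript, ENST00000227378, was listed at 0 reads in all 9 libraries, where a count of 0 allows up to 3 reads per library, or 0.0330 to 0.0466 CPM. ENST00000534624 thus had 100% of the reads of these HSPA8 transcripts in every library, and their shares left nothing to test. The files do not show whether reads that fit both were all given to one of them, so the 0 speaks for the listed transcript and not for a form of the mRNA.

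HSPH1 encodes HSP110, a nucleotide exchange factor that resets HSP70. The listed transcript was far rarer than the other tested rows, at 3.11, 1.93 and 2.93 TPM in WT, 2.08, 2.72 and 2.48 TPM in TA7, and 2.18, 1.58 and 1.43 TPM in TE7. It was the only tested row with a fitted fold below 1 in TE7, where replicates 2 and 3 were the lowest of all libraries while replicate 1 lay within the WT range. The log2 difference of -0.49 from WT had a wide interval of -1.11 to 0.14 (edgeR adjusted p = 0.311), and it rested on 381 to 728 reads per library. The difference was -0.24 without WT replicate 1 (edgeR adjusted p = 0.619). Other transcripts of HSPH1 are not analysed here, so this level is not that of the gene.

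HSP90AA1 and HSP90AB1 encode the 2 HSP90 proteins of the cytosol, the first more inducible and the second made at all times. HSP90AB1 was the most abundant row, at 1121, 1096 and 1161 TPM in WT, 1135, 1155 and 1168 TPM in TA7, and 1276, 1184 and 1249 TPM in TE7. Every TE7 library was above every other library, but by little: the log2 difference was 0.16 from WT (interval 0.02 to 0.31, edgeR adjusted p = 0.154) and 0.23 from TA7 (interval 0.08 to 0.37, edgeR adjusted p = 0.0994). Without WT replicate 1 it was 0.24 from WT (edgeR adjusted p = 0.00275) and 0.22 from TA7 (edgeR adjusted p = 0.00574), and both passed. Without WT replicate 2 it was 0.13 from WT (edgeR adjusted p = 0.334) and 0.23 from TA7 (edgeR adjusted p = 0.124), and neither passed. Of 9 fits with 1 library left out, 1 passed against WT and 1 against TA7.

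HSP90AA1 was at 689, 687 and 741 TPM in WT, 725, 813 and 785 TPM in TA7, and 736, 652 and 722 TPM in TE7. Its groups overlapped, and the log2 differences of TE7 from WT (0.09, interval -0.07 to 0.25) and from TA7 (0.00, interval -0.16 to 0.16) did not pass (edgeR adjusted p = 0.474 and 0.989). The difference from WT was 0.16 without WT replicate 1 (edgeR adjusted p = 0.0998). In log2 CPM its spread over the 9 libraries was the smallest of the tested rows, which in TPM it was not.

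HSPB1 keeps unfolded proteins from clumping and also binds actin filaments. It was at 647, 492 and 520.0 TPM in WT, 629, 578 and 553 TPM in TA7, and 896, 909 and 931 TPM in TE7. WT and TA7 libraries overlapped, and all TE7 libraries stood well above both, in a range narrower than that of the other groups. TE7 exceeded WT by 0.69 in log2 (SE 0.140, interval 0.37 to 1.02, edgeR adjusted p = 0.0227) and TA7 by 0.74 (SE 0.140, interval 0.42 to 1.07, edgeR adjusted p = 0.0372). TA7 differed from WT by -0.05 (interval -0.37 to 0.27), and by 0.16 without WT replicate 1, where TE7 exceeded WT by 0.90 (edgeR adjusted p = 0.000608). The call against WT was lost without WT replicate 2 or 3 and without any 1 TE7 library, with edgeR adjusted p between 0.0624 and 0.0802, and in a fit of only WT and TE7 (0.0604). The call against TA7 was lost without WT replicate 2 and without any 1 TA7 or TE7 library, with edgeR adjusted p between 0.0518 and 0.155, and without a filter on low counts (0.0509). The log2 difference was 0.60 or more in each of these fits.

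HSPD1 and HSPE1 encode HSP60 and HSP10, the barrel and lid of the mitochondrial folding chamber. They are transcribed away from each other, and 1 of the 2 HSPD1 windows overlaps the HSPE1 window. HSPD1 was at 415, 398 and 406 TPM in WT, 432, 439.6 and 422 TPM in TA7, and 488, 430.0 and 464 TPM in TE7. In TPM the WT libraries were lowest and TE7 replicate 2 lay inside the TA7 range, while in CPM the TA7 libraries lay inside the WT range. The log2 difference of TE7 from WT was 0.28 (SE 0.0901, interval 0.07 to 0.49, edgeR adjusted p = 0.0990), and 0.39 without WT replicate 1, where it passed (edgeR adjusted p = 0.0103). It was 0.24 without WT replicate 2 and 0.22 without WT replicate 3, and did not pass in either fit. Among the 9 fits with 1 library left out, 1 passed.

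HSPE1 was at 753, 633 and 677 TPM in WT, 641, 691 and 668 TPM in TA7, and 687, 668 and 694 TPM in TE7. The 3 groups overlapped, and the WT libraries spanned the range of all others. Its log2 difference of TE7 from WT was 0.08 (interval -0.20 to 0.36, edgeR adjusted p = 0.766). Without WT replicate 1, where its level was highest, this became 0.25 and passed (edgeR adjusted p = 0.0196). Without WT replicate 2 the difference was 0.0046 and did not pass (edgeR adjusted p = 0.995). Of 9 fits with 1 library left out, 1 passed.

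**Figure D2:**
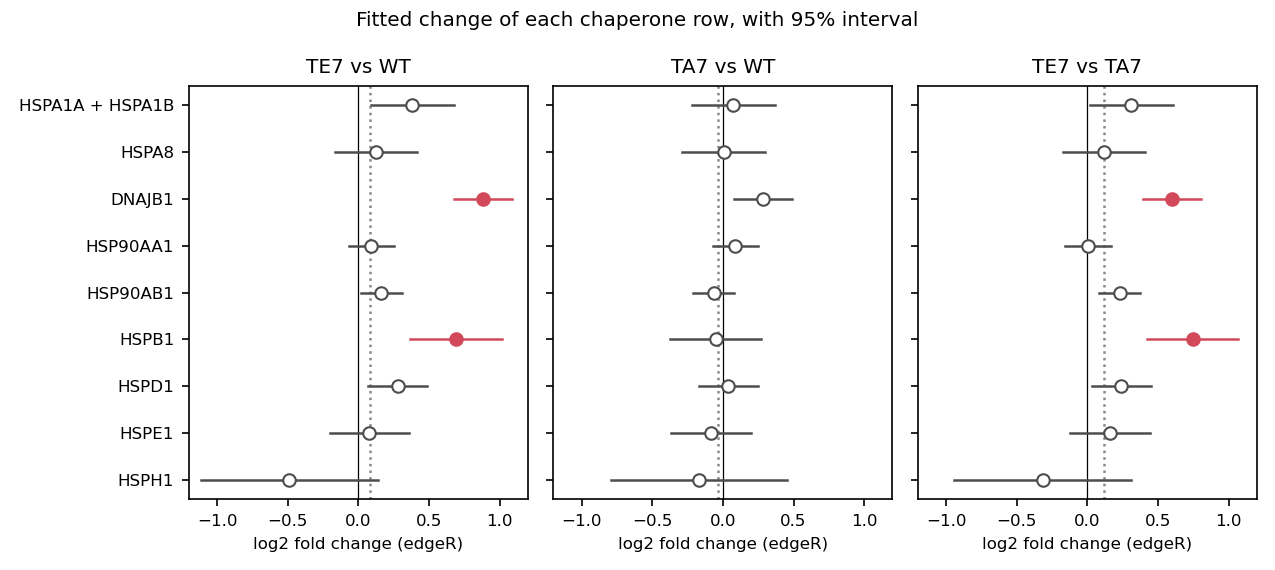
Fitted log2 fold change (x axis) of each tested chaperone row with its 95% interval, for TE7 vs WT, TA7 vs WT and TE7 vs TA7. Filled red points passed the edgeR test at adjusted p under 0.05, and the dotted line is the median of transcripts at 100 CPM or more (0.08, -0.03 and 0.12). DNAJB1 and HSPB1 are the filled points on the left and right, and there are 0 in the middle.

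The second comparison set TA7 against WT, and 0 of the 9 rows were called in edgeR. DNAJB1 alone had an unadjusted edgeR p under 0.05 (0.0124). Few transcripts were called at all in edgeR, 0.0612% of those tested and 0.252% of those at 100 CPM or more, so a count of 0 in 9 is near the background. DESeq2 and limma on log2(TPM + 1) also called 0 of the 9 rows, where 2.81% and 0.152% of all transcripts were called. TA7 and WT libraries did not overlap in CPM for 1 row, DNAJB1, against 14.1% of all transcripts. The 9 log2 differences lay between -0.17 (HSPH1) and 0.28 (DNAJB1), and 5 were above 0. Their median was 0.01, against 0.00 over all transcripts.

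The third comparison set TE7 against TA7, which also tests whether the changes from WT differ between these forms. The same rows, DNAJB1 and HSPB1, were called higher, and 0 were called lower. The background was 3.07% called, 1.29% called higher, and among transcripts at 100 CPM or more 14.4% called and 6.55% called higher. TE7 libraries lay above TA7 libraries in CPM in 6 of 9 rows (those named for TE7 against WT, and HSPE1), and the groups overlapped in the other 3. Over all transcripts 31.5% did not overlap, in either direction. In TPM, HSPD1 and HSPE1 overlapped between TE7 and TA7. The median log2 difference was 0.23 over the rows, -0.02 over all transcripts and 0.12 at 100 CPM or more. Both comparisons with TE7 use the same TE7 libraries, and both comparisons with WT use the same WT libraries, so their values are not independent.

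Transcript length moved with the differences between TE7 and WT across all transcripts. At 5 CPM or more, the median log2 fold change was 0.17 among transcripts of 500 to under 1000 bases, the class of HSPB1 (777 bases) and HSPE1 (557 bases). It was 0.09 at 2000 to under 4000 bases, which holds DNAJB1 (2242 bases), HSPD1 (2245 bases) and the HSP70 and HSP90 transcripts. It was -0.16 at 4000 to under 8000 bases, where HSPH1 (5244 bases) lies. In these classes 13.6%, 13.9% and 7.02% of transcripts were called higher. The differences of DNAJB1 and HSPB1 (0.88 and 0.69) lay above the medians of their classes, and the part of length in the chaperone values was not tested.

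**Figure D3:**
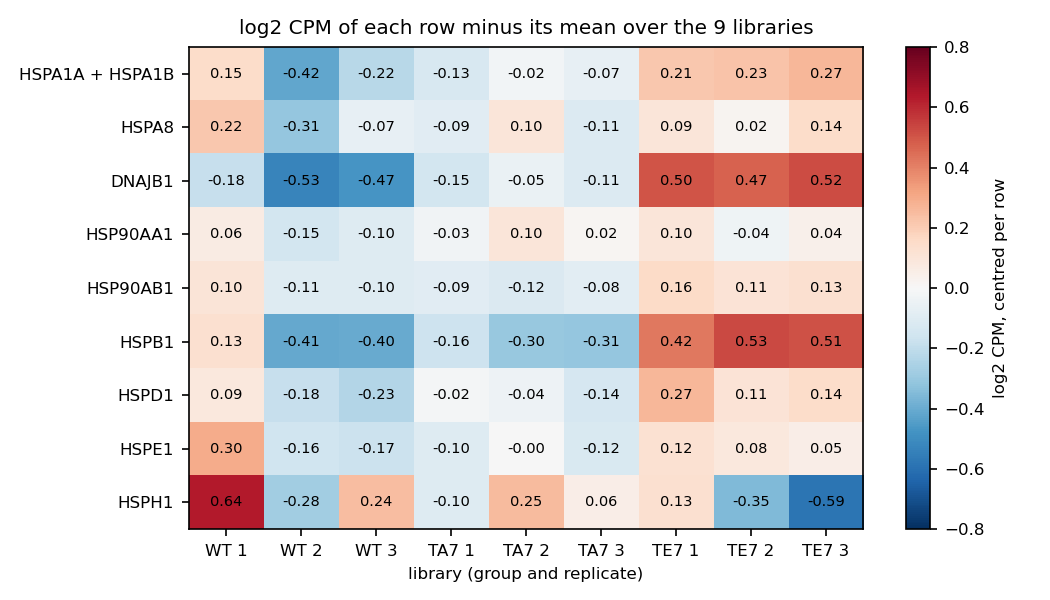
log2 CPM of each tested chaperone row (rows) minus its mean over the 9 libraries (columns), printed in each cell and coloured from blue (below the mean) to red (above). DNAJB1 is 0.47 to 0.52 above its mean in TE7, HSPB1 0.42 to 0.53, and WT 1 is above the other WT libraries in all rows.

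The row whose profile was most like that of DNAJB1 was HSPB1, and the reverse also held. Likeness was measured as the root mean square difference of log2 CPM, each row centred on its mean over the 9 libraries, and was 0.158 for this pair. HSP90AB1 and HSPD1 were each other's nearest (0.0742), as were HSPA8 and HSPE1 (0.0835). The HSPA1A and HSPA1B sum was nearest to HSPD1 (0.111), HSP90AA1 to HSPA8 (0.0973), and HSPH1 to HSP90AA1 (0.331). These values come from the same 9 libraries and were not tested.

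Ratios between chaperones that work together were computed in TPM in each library, as a description without a test. DNAJB1 per HSPA1A and HSPA1B rose in steps that did not overlap, at 0.375 ± 0.0298 in WT, 0.432 ± 0.00352 in TA7 and 0.531 ± 0.00699 in TE7 (SD, n = 3). DNAJB1 per HSPA8 did so too, at 0.102 ± 0.00766, 0.125 ± 0.00587 and 0.174 ± 0.00442. Inducible HSPA1A and HSPA1B per HSPA8 was 0.273 ± 0.0105 in WT, 0.289 ± 0.0144 in TA7 and 0.328 ± 0.0101 in TE7, with TE7 above both others and WT overlapping TA7.

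HSP90AA1 per HSP90AB1 separated all 3 groups in another order, at 0.627 ± 0.0118 in WT, 0.672 ± 0.0324 in TA7 and 0.569 ± 0.0157 in TE7 (SD, n = 3). WT at 0.614 to 0.638 and TA7 at 0.639 to 0.704 lay next to each other with almost no gap. HSPE1 per HSPD1 was highest in WT, at 1.69 ± 0.112, against 1.55 ± 0.0537 in TA7 and 1.49 ± 0.0738 in TE7, and the last groups overlapped. Together the 11 transcripts held 0.457% ± 0.0296 of all TPM in WT, 0.481% ± 0.0155 in TA7 and 0.526% ± 0.0197 in TE7, and TE7 did not overlap with the others. The rows did not share this rise evenly. The mean sum was 4567 TPM in WT and 5259 TPM in TE7, and HSPB1 alone was 359 TPM higher in TE7. Mean TPM was slightly lower in TE7 than in WT for HSP90AA1, HSPE1 and HSPH1.

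**Figure D4:**
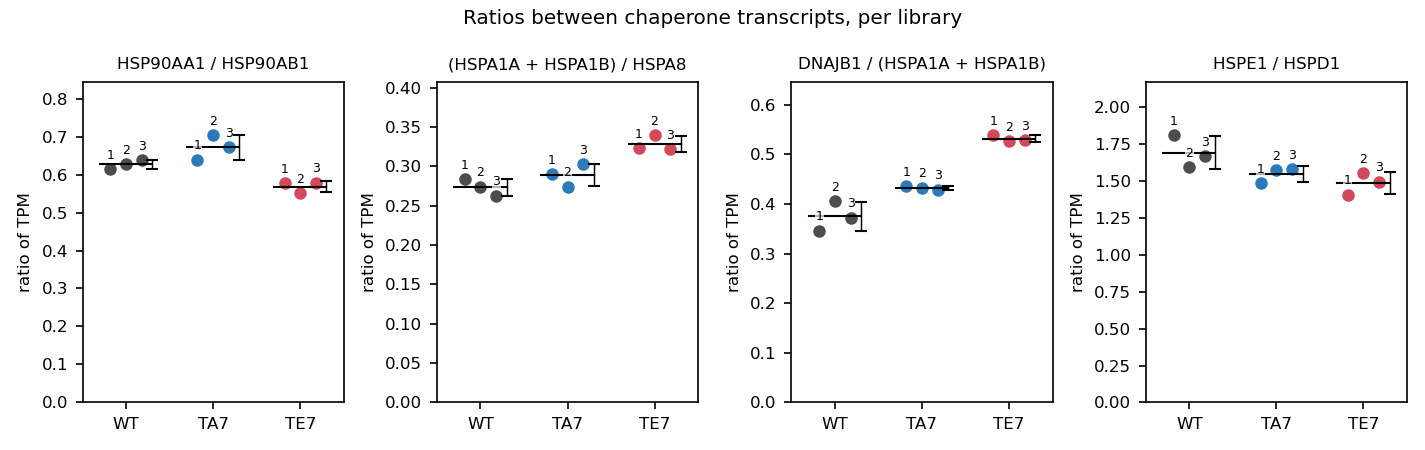
Ratio of TPM between pairs of chaperone rows in each library (y axes start at 0), with replicate numbers, the mean as a line and the SD as the bar at its right end (n = 3). HSP90AA1 per HSP90AB1 is lowest in TE7 (0.550 to 0.578), while DNAJB1 per HSPA1A and HSPA1B is highest there (0.526 to 0.539).

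In TPM, averaged over the 9 libraries, the order was HSP90AB1 (1172), HSPA8 (825), HSP90AA1 (728), HSPB1 (684), HSPE1 (679), HSPD1 (433), the HSPA1A and HSPA1B sum (245), DNAJB1 (111) and HSPH1 (2.27). Neighbours overlapped in range from HSPA8 to HSP90AA1, HSP90AA1 to HSPB1 and HSPB1 to HSPE1, and the others did not. HSPB1 ranked 5 in each WT and TA7 library and 2 in each TE7 library. HSPA8 ranked 2 in each TA7 library and 3 in each TE7 library, and HSP90AA1 ranked 3 in each TA7 library and 4 or 5 in TE7. Rows ranked 1 and 6 to 10 kept their places in all 9 libraries.

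**Figure D5:**
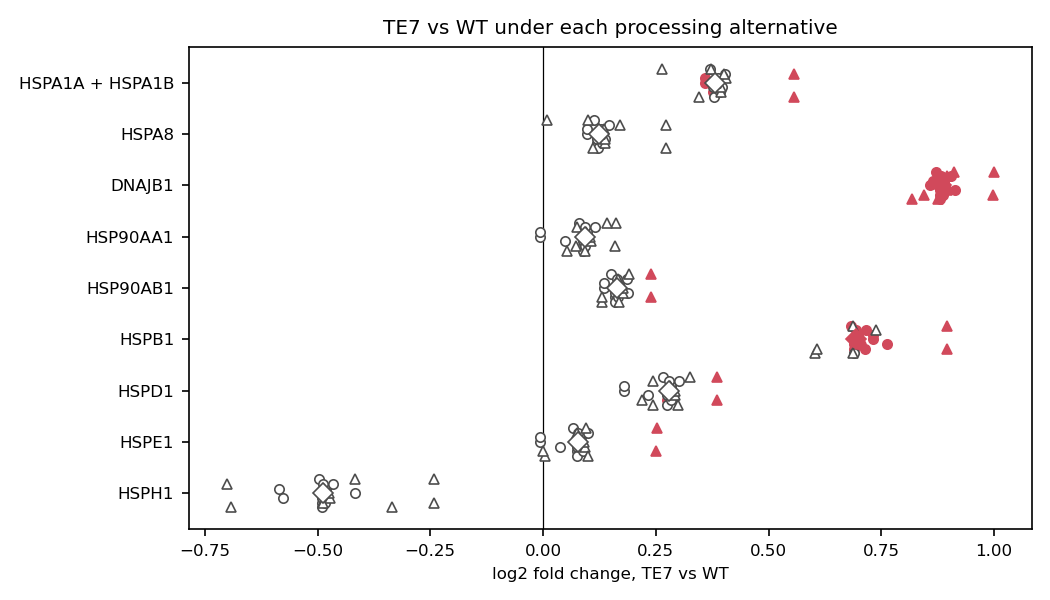
log2 fold change of TE7 vs WT (x axis) for each chaperone row under the processing of the report (diamonds), other processing choices (circles) and fits with 1 or 2 libraries left out (triangles). Red symbols passed at adjusted p under 0.05. DNAJB1 is red throughout, between 0.82 and 1.00, and HSPB1 in 16 of 22 alternatives.

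Across 22 alternatives DNAJB1 was called higher in TE7 than in WT in 22, with log2 differences of 0.82 to 1.00 and adjusted p of at most 0.0129. HSPB1 was called in 16 of 22, with differences of 0.60 to 0.90. Without WT replicate 2 DNAJB1 alone was called against WT, where 4.13% of all transcripts were called. Without WT replicate 1 the count of called rows against WT was 6 of 9, as HSPA1A and HSPA1B, HSP90AB1, HSPD1 and HSPE1 passed too, where 11.7% of all transcripts were called. Those 4 rows kept the direction of TE7 above WT in every other fit in the plot of alternatives, except HSPE1, at -0.0057 in limma on log2(TPM + 1) or log2(TPM + 0.1) and -0.0012 without WT replicate 3.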

How the data were processed

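Transcripts were quantified from oligo-dT selected RNA prepared with a Tecan/Nugen kit, from 1 ug of RNA, per the labels' protocols. The submitters' processing notes name cutadapt 2.3, Salmon 1.3.0 and hg19. Which transcript set, library type and bias settings were used is not given in the sources used here. The tables, per the file headers, give an estimated count of reads per transcript, which the authors deposited without normalization, and a TPM value, which the authors deposited scaled per effective length and to a fixed total. Reads that fit several transcripts are divided among them, and 12.7% to 13.8% of estimates above 0 were whole to within 0.001.

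Estimated counts were rounded, HSPA1A and HSPA1B were summed, and edgeR 4.0.16 (R 4.3.3) filtered low counts by group, which left 78477 transcripts with 99.67% to 99.79% of reads. One quasi-likelihood model with TMM factors was fitted to the 9 libraries, and p-values were adjusted over all transcripts by Benjamini-Hochberg (threshold 0.05). It was tested on simulated data. SE is the size of the log2 fold change over the square root of F. Alternatives used DESeq2 1.42.0, limma 3.58.1, other scalings, filters and fits, and each library left out.

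The transcripts, lists and tests were chosen with earlier results of these data known. The naming rule took all 11 listed transcripts and no other. A list of co-chaperones, cell type markers, the Spt5 gene and protein identities are not analysed here, since no table used here pairs transcript identifiers with symbols or holds proteins. The promoter windows are from RefSeq on GRCh38.p14, for all 10 genes. No coordinates of the authors' build are given. Replicates were grouped by sample title. Depth covers counting error only, since reads are not counts of independent molecules.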

Additional observations from a re-analysis of the deposited data

How the results depend on the processing

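Called rows numbered 2 for TE7 vs WT, 0 for TA7 vs WT and 2 for TE7 vs TA7, each higher in TE7. For TE7 vs WT the count was 4 in DESeq2 (with HSPD1 and the HSPA1A and HSPA1B sum added) and 5 with library size alone (HSP90AB1 too). It was 1 in a fit of only the groups compared. In these fits 20.2%, 9.81% and 6.96% of all transcripts were called. Without WT replicate 1 and TA7 replicate 1 together the count was 6, against 11.9% of all transcripts. For TE7 vs TA7 it was 1 without a filter on low counts and 4 in a fit of only the groups compared, against 0.787% and 6.53% of all transcripts. Leaving out 1 library in turn gave 1 to 6 rows for TE7 vs WT, where 3.71% to 11.7% of all transcripts were called. It gave 0 to 1 for TA7 vs WT (0.00591% to 0.187% of all) and 0 to 4 for TE7 vs TA7 (0.354% to 5.63%). The 1 for TA7 vs WT was DNAJB1 without WT replicate 1. Such fits also hold fewer libraries, and why the counts changed was not tested.

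Same-numbered libraries of different groups had correlations of their deviations from the group means between -0.018 and 0.088. For libraries of other numbers in different groups the range was -0.084 to 0.031. Of these pairs 0 of 9 and 0 of 18 exceeded 0.1, so that limit cannot tell the kinds apart. Whether the numbers pair the samples is therefore not settled. With a replicate block 2 rows were called for TE7 vs WT, 0 for TA7 vs WT and 0 for TE7 vs TA7. Of all transcripts 6.77%, 0% and 1.4% were called. For TE7 vs TA7 the edgeR adjusted p was 0.0505 for DNAJB1 and 0.0621 for HSPB1.

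The log2 difference changed sign in 38 values, none of which passed before or after. For TE7 vs TA7, HSP90AA1 was at -0.012 with a minimum of 1 CPM in 3 libraries, -0.062 with library size alone, -0.0077 with upper quartile factors, -0.14 in limma with 1 or 0.1 added to TPM, -0.0039 with only these groups, -0.031 with both WT replicate 1 and TA7 replicate 1 left out, and -0.027 to 0.043 without 1 library, and HSPA8 at -0.0077 in limma. For TE7 vs WT, limma gave -0.0060 for HSP90AA1 and -0.0057 for HSPE1, and HSPE1 ranged from -0.0012 (without WT replicate 3) to 0.25 without 1 library. For TA7 vs WT, limma gave 0.034 for HSP90AB1 and 0.094 for HSPB1, library size alone 0.017 for HSPB1, and an effective length offset -0.0018 for HSPA8 and -0.011 for HSPD1. Without WT replicate 1 and TA7 replicate 1 together, TA7 vs WT was 0.013 for HSP90AB1, 0.11 for HSPB1 and HSPE1 and 0.16 for HSPH1. Without 1 library it ranged from -0.098 to 0.019 for HSP90AB1, -0.045 to 0.25 for HSPA1A and HSPA1B, -0.11 to 0.16 for HSPA8, -0.14 to 0.16 for HSPB1, -0.020 to 0.15 for HSPD1, -0.16 to 0.099 for HSPE1 and -0.37 to 0.083 for HSPH1.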
